A study of Mus musculus with 4 samples.

Results

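The genes described here encode 5 subunits of the nexin-dynein regulatory complex (N-DRC) and both axonemal rulers of motile cilia. They were chosen by symbol, as Drc1, Drc3, Drc7, Gas8, Ccdc65, Ccdc39 and Ccdc40, and all 7 were present once among the 22583 features. The N-DRC links neighbouring doublet microtubules of the axoneme and governs the dynein motors between them, so that sliding is turned into bending. Drc1, Ccdc65 (also called Drc2) and Gas8 (also called Drc4) encode the subunits of its base, while Drc3 and Drc7 encode subunits of the linker that reaches the next doublet. Ccdc39 and Ccdc40 encode coiled-coil partners that lie along each doublet as a ruler, set the spacing of the axonemal repeat and hold the N-DRC and inner dynein arms in place. In humans, mutations of DRC1, CCDC65, GAS8, CCDC39 or CCDC40 cause primary ciliary dyskinesia (PCD), in which airway cilia beat abnormally or not at all.

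The study sequenced single tracheal cells of PCD mouse models whose mutated genes belong to the central pair apparatus, not to the N-DRC: from bgh mice, which carry a mutated Spef2, from Cfap54gt/gt mice with a gene-trapped Cfap54, from nm1054 mice, which lack Cfap221, and from wild-type mice. All were kept on the 129S6/SvEvTac background and were 5 to 8 months old. Each genotype was 1 library of cells pooled from 5 tracheas for bgh and 6 for each of the other genotypes, with no replicate. The barcodes carried a library number from 1 to 4 that no source used here ties to a genotype, so no genotypes were set against each other and no value below belongs to one.

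Libraries 1 to 4 held 39658153 to 53491773 UMIs (unique molecular identifiers, each standing for 1 captured transcript). After filtering, 19471 cells remained, and 52 barcode sequences occurred in more than 1 library. Cells were clustered without the 7 genes and named from markers, which gave 4742 ciliated-like cells. CPM below is a gene's UMIs per 1000000 UMIs of the cells summed. All 8 ciliated markers were higher in ciliated-like than in other epithelial cells, with Foxj1 at 325 against 1.20 CPM, Ccdc153 at 1284 against 2.76 CPM and the weakest contrast for Sec14l3 at 1195 against 80.3 CPM. The other epithelial cells were 4407 secretory-like, 3100 basal-like, 907 hillock-like and 41 ionocyte-like cells. Ciliated-like cells made up 32.3%, 25.6%, 19.0% and 24.8% of libraries 1 to 4, with median depths of 3788, 2247, 2084 and 2446 UMIs. Clusters with markers of several lineages (2491 cells, called mixed) and clusters left unnamed (3552 cells) were set aside. All intervals are 95%, exact, and cover counting error only.

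Promoter sequence is shown here because the 7 genes were high in the same cells, first for 3 genes with a motif match upstream of the start and for Ccdc40, which had none. Each stretch is the 150 bases before the RefSeq start on the gene's strand in build GRCm38.p6, taken from RefSeq, a build other than that of the counts, which carry no coordinates. Capitals mark the letters GTTGCNA on either strand, the core of the X-box motif that RFX transcription factors of ciliated cells bind.
Drc1, chr5:30281243-30281392, plus strand: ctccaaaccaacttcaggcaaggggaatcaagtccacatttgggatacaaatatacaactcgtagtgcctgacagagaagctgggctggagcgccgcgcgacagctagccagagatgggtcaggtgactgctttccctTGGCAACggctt
Drc3, chr11:60353230-60353379, plus strand: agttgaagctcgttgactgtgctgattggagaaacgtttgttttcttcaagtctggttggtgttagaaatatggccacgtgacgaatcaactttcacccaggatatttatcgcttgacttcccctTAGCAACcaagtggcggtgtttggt
Ccdc65, chr15:98708044-98708193, plus strand: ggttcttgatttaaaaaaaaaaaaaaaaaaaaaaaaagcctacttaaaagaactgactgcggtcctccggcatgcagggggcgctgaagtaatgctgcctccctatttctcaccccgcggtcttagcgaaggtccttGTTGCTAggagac
Ccdc40, chr11:119228422-119228571, plus strand: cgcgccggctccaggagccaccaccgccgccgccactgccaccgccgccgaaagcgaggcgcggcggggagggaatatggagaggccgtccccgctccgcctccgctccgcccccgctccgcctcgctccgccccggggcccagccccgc
Further matches lay just after the start and are given in windows of 29 bases.
Drc1, chr5:30281387-30281415, plus strand: cggcttgttccTAGCAACccggctgctgg
Gas8, chr8:123518856-123518884, plus strand: agcacgggatctagtcggaGTTGCCAgga
Ccdc39, chr3:33844276-33844304, minus strand: ggcgcctggctGTTGCTAgggccgcggaa

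The X-box core letters were found in 5 of the 7 promoters, read from 250 bases before to 50 after the start. Counting the start as base 1, matches began at -12 and 6 in Drc1, -25 in Drc3, -13 in Ccdc65, 18 in Ccdc39 and 41 in Gas8. No match was found in the windows of Drc7 and Ccdc40. Of all 32851 RefSeq mouse promoters, 10.4% held these letters. Of 69 other cilia genes matched by symbol, 52.2% held them in at least 1 promoter. That share is counted by gene, so a gene with several promoters had more places for a match. The forkhead letters TGTTTAC, which the ciliary factor Foxj1 can bind, were in 3.65% of all promoters and in none of the 7. In the GENCODE M21 annotation of GRCm38 the genes span chr5:30281388-30366695 (Drc1, ENSMUSG00000073102), chr11:60353329-60394341 (Drc3, ENSMUSG00000056598), chr8:95055103-95078141 (Drc7, ENSMUSG00000031786), chr8:123518834-123536650 (Gas8, ENSMUSG00000040220), chr15:98708207-98723336 (Ccdc65, ENSMUSG00000003354), chr3:33812362-33844310 (Ccdc39, ENSMUSG00000027676, minus strand) and chr11:119228572-119265238 (Ccdc40, ENSMUSG00000039963). The motifs were chosen after the sequences had been seen, and a match is a description of letters, not of binding.

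All 7 genes were far higher in ciliated-like cells than in the other epithelial cells of the same library. Each was at least 2-fold higher, on the scale of log2 CPM with 1 CPM added, in every library, and none was lower. Of the 12325 features with at least 50 UMIs, 24.2% were higher and 4.74% lower by the same rule. The median log2 ratio was 6.29 for the 7 genes and 0.56 for those features. With classes drawn by a gate on marker shares in place of clusters, the genes' median log2 ratios were smaller, 3.30 for Gas8 and 3.67 to 4.12 for the other 6, against 4.57 and 5.73 to 7.33 with clusters. The classes were built from genes that rise and fall with these, so the ratios describe the classes and were not tested.

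The base of the N-DRC is taken first. Drc1 had 1038, 766, 790 and 868 UMIs in ciliated-like cells of libraries 1 to 4, against 7, 8, 5 and 15 UMIs in other epithelial cells, which held more UMIs in all. Summed over libraries, that was 181 CPM in ciliated-like cells and 0.416 CPM in other epithelial cells, a 435-fold difference (312 to 626). Ccdc65 had 346, 195, 306 and 337 UMIs in ciliated-like cells against 3, 3, 7 and 9 in other epithelial cells, or 62.0 against 0.262 CPM, 237-fold (156 to 379). In both genes every library showed the contrast, with no overlap between the classes.

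Gas8 was the exception in size. It had 1334, 643, 790 and 1042 UMIs in ciliated-like cells of libraries 1 to 4, against 160, 132, 143 and 210 UMIs in other epithelial cells. Summed, it stood at 199 CPM (193 to 206) in ciliated-like cells and at 7.67 CPM (7.09 to 8.29) in other epithelial cells, 26.0-fold apart (23.9 to 28.3). The interval of that fold lay below those of the other 6 genes, whose folds ran from 177 to 461.

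The linker subunits had folds whose intervals overlapped that of Drc1. Drc3, a leucine-rich repeat protein, had 738, 488, 651 and 591 UMIs in ciliated-like cells against 0, 5, 10 and 16 in other epithelial cells, and 350-fold more CPM over all libraries (246 to 517). Drc7, which mice need to build the sperm flagellum, had 598, 332, 435 and 511 UMIs in ciliated-like cells against 7, 3, 6 and 11 in other epithelial cells, 306-fold (209 to 465).

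Of the rulers, Ccdc39 had 1501, 828, 1000 and 1277 UMIs in ciliated-like cells of libraries 1 to 4, against 11, 6, 10 and 17 UMIs in other epithelial cells. It was 461-fold higher in ciliated-like cells (343 to 635). Its partner Ccdc40 had 509, 246, 331 and 441 UMIs in ciliated-like cells against 8, 7, 11 and 12 in other epithelial cells, 177-fold (128 to 251). The intervals of the partners' folds did not overlap, and both genes were separated between the classes in each library.

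**Figure D1:**
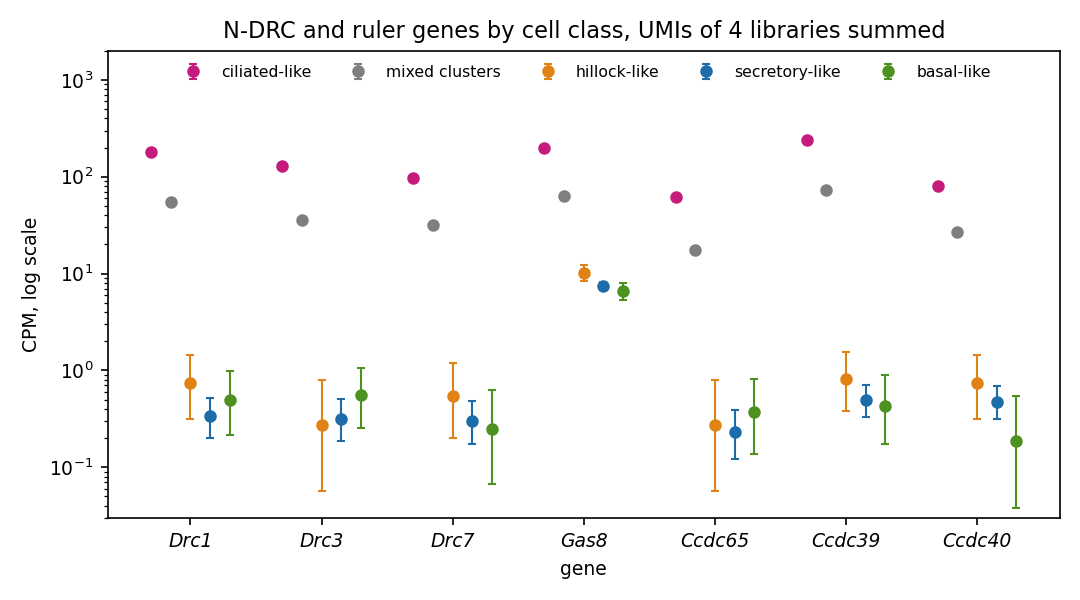
Level of each gene in CPM (log axis) in ciliated-like, mixed, hillock-like, secretory-like and basal-like cells, from UMIs summed over 4 libraries; points are values and bars exact 95% Poisson intervals. The ciliated-like points lie between 62.0 and 241 CPM, the hillock-like, secretory-like and basal-like points of 6 genes lie under 1 CPM, and those of Gas8 lie at 10.2, 7.47 and 6.55 CPM.

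In the other epithelial cells, Gas8 made up most of the UMIs of the 7 genes. It took 20.1% of their UMIs in ciliated-like cells (19.6 to 20.7) and 76.6% in other epithelial cells (73.6 to 79.4). In other epithelial cells of libraries 1 to 4 its part was 81.6%, 80.5%, 74.5% and 72.4%, and no library came near the ciliated-like value. Gas8 had 3809 UMIs and the other 6 genes 15123 in ciliated-like cells, against 645 and 197 in other epithelial cells. In the mixed clusters, which held 13420 UMIs of the 7 genes, the part of Gas8 was 20.9%, close to that in ciliated-like cells. With classes drawn by a gate on marker shares, under which 12.5% of the secretory and basal cells came from the mixed clusters, Gas8 took 28.0% of the 7 genes' UMIs in those cells.

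Among the 3 large epithelial classes outside the ciliated lineage, Gas8 lay between 6.55 and 10.2 CPM. It stood at 10.2 CPM in hillock-like cells (8.36 to 12.2), 7.47 CPM in secretory-like cells (6.77 to 8.21) and 6.55 CPM in basal-like cells (5.37 to 7.93). In CPM the interval of hillock-like cells lay above the others, though other clusterings named only 163 to 635 cells hillock-like. In cells thinned to 1000 UMIs it was seen in 1.43% of hillock-like (0.765 to 2.44), 0.843% of secretory-like (0.594 to 1.16) and 0.646% of basal-like cells, with overlapping intervals. At 500 UMIs it was seen in 3 of 907 hillock-like cells (0.331%, 0.0683 to 0.964), too few to place. That interval overlapped those of secretory-like cells at 0.408% and basal-like cells at 0.484%. The thinned shares set no order, and none is read from these levels. Its part of the 7 genes' UMIs was 74.1% to 77.7% in these classes. In proliferating-like cells Gas8 had 20 UMIs, or 11.2 CPM (6.86 to 17.3), and in ionocyte-like, macrophage-like and T cell-like cells it had 4, 2 and 0 UMIs, too few to place. In the GENCODE M21 annotation 2 other gene models, Gm20388 and Gm22314, overlap Gas8 on the same strand, so its UMIs could be split or shared with them in counting. Drc1 overlaps Gm43755 in the same way, and Ccdc39 overlaps Ttc14 and Gm43140 on the opposite strand, with the use of strand in counting not given in the sources used here.

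**Figure D2:**
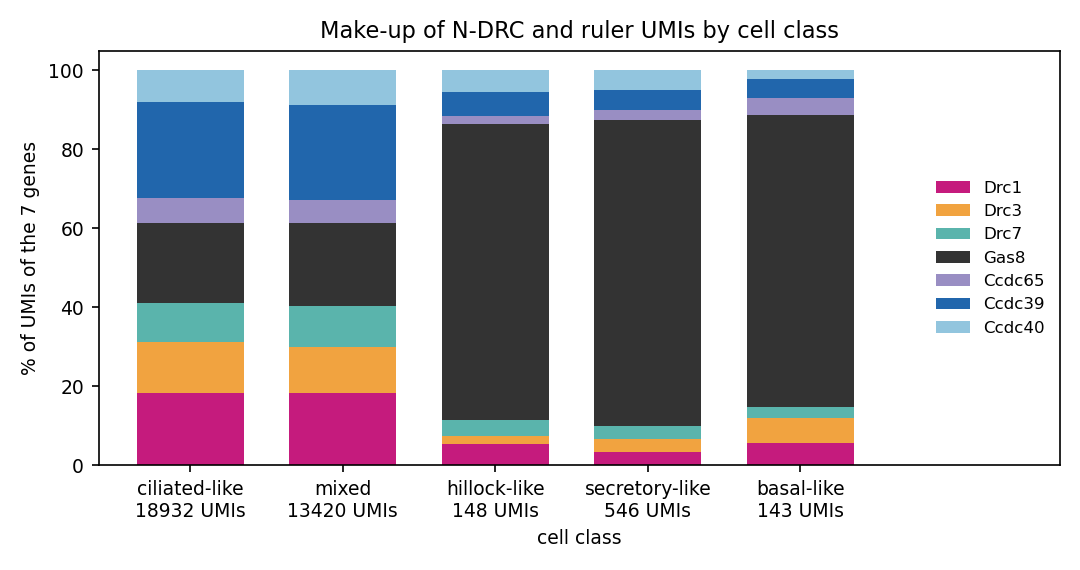
Percentage of the UMIs of the 7 genes taken by each gene, in 5 cell classes with the total UMIs under each bar. Gas8 takes 20.1% in ciliated-like cells and 74.1% to 77.7% in hillock-like, secretory-like and basal-like cells.

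Counted over cells, the genes were sparse even where they were high. With each cell thinned to 1000 UMIs, which left out 594 of the ciliated-like and 21 of the other epithelial cells, 64.1% of ciliated-like cells (62.6 to 65.5) and 1.10% of other epithelial cells (0.891 to 1.35) held a UMI of at least 1 of the 7 genes. Without thinning, 86.1% of ciliated-like, 11.01% of secretory-like and 4.42% of basal-like cells did, at median depths of 2521, 11384 and 4239 UMIs. Thinned, Ccdc39 was seen in 22.6% of ciliated-like cells, Gas8 in 18.0%, Drc1 in 16.9%, Drc3 in 13.0%, Drc7 in 9.64%, Ccdc40 in 8.61% and Ccdc65 in 6.80%. In thinned basal-like cells, Gas8 was seen in 0.646% (0.395 to 0.996) and the other 6 genes in 0.0323% to 0.129%. Of thinned ciliated-like cells, 25.1% held a UMI of 2 or more of the genes. None of the 8434 other epithelial cells did. A mark of 3 cells of that total would be 0.0356%, a convention set for this work and not an exact limit. At full depth, 77 of the 4742 ciliated-like cells held all 7.

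Between libraries, the levels in ciliated-like cells differed by less than 2-fold. None of the 7 had a highest level at least 2-fold above its lowest with intervals apart, a mark that 6.38% of the 9257 genes with at least 100 UMIs in these cells reached. With 1.5-fold in place of 2-fold, Drc1, Drc3 and Ccdc65 reached it, as did 20.8% of those genes. Drc3 and Ccdc65 passed that mark narrowly, at ratios of 1.503 and 1.507. The median ratio of highest to lowest library was 1.26 for the 7 genes, 1.37 for 39 dynein arm and radial spoke genes and 1.36 for all genes tested. Counting error alone widens this ratio for genes with few UMIs. The genes tested had as few as 100 UMIs and the 7 genes at least 1184, so these medians are not on an equal footing. Library 1 had the lowest value for all 7 genes and for 27 of 39 genes of the dynein arms and radial spokes. That count takes in Nme8, which had 0 UMIs in every library and so no true lowest. Its interval lay below those of the other 3 libraries for Drc1, Drc7 and Ccdc39, as an interval of 1 library did for 8.69% of all genes tested, and overlapped that of another library for the other 4. Those 39 genes summed to 4156, 4933, 5198 and 5190 CPM in this class in libraries 1 to 4, and the secretory markers in the same cells to 14979, 13328, 26609 and 21955 CPM. The largest part of that marker sum was Cbr2, which was higher in ciliated-like than in other epithelial cells, at 7080 against 4683 CPM. The other secretory markers were lower in ciliated-like cells. Library 1 also had the deepest ciliated-like cells. The part of these in the order of the libraries was not tested.

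This order depended on which cells were called ciliated. The large mixed cluster came out as ciliated-like with a limit of 10% mitochondrial UMIs or with axonemal genes left out of clustering. In a further setting it was added outright, together with the other mixed clusters that had ciliated markers. Those were 249 cells with neuroendocrine, ciliated and secretory markers and 390 cells with tuft and ciliated markers. In these 3 settings library 1 remained the lowest for Drc1, while Drc7, Ccdc65, Ccdc39 and Ccdc40 were lowest in library 2 and highest in library 4. Drc3 was highest in library 3 in each. It was lowest in library 2 with the 10% limit (61.4 CPM) or the mixed clusters added (54.5 CPM). The ratio of highest to lowest library was then 1.13 to 1.23 for Drc1, the smallest of the 7, and 1.65 to 1.73 for Ccdc40, the largest.

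With the classes used throughout, Drc1 had the largest ratio, 1.67. Its level in ciliated-like cells was 148 CPM (139 to 157) in library 1, 246 CPM (229 to 264) in library 2, 192 CPM (178 to 205) in library 3 and 179 CPM (167 to 192) in library 4. Library 2 stood above the other libraries, its interval clear of theirs, which was the case in 1 library for 9.65% of all genes tested.

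The other base subunits were flatter or ordered otherwise. Gas8 had levels of 190, 207, 192 and 215 CPM across libraries 1 to 4, a ratio of 1.13 between highest and lowest. Ccdc65 was at 49.2, 62.6, 74.2 and 69.6 CPM, highest in library 3. Thus libraries 1 and 3 were alike for Gas8 and furthest apart for Ccdc65.

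Of the linker subunits, Drc3 was at 105, 157, 158 and 122 CPM with the classes used throughout. Libraries 2 and 3 were level and both above libraries 1 and 4 beyond counting error, an order not kept in the 3 settings above. Drc7 was at 85.1, 107, 105 and 106 CPM, so that libraries 2 to 4 could not be told apart. Of the rulers, Ccdc39 was at 214, 266, 242 and 264 CPM and Ccdc40 at 72.4, 79.0, 80.2 and 91.1 CPM. For Ccdc40 the intervals of libraries 1 and 4 did not overlap, and those of libraries 2 and 3 overlapped both of them.

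**Figure D3:**
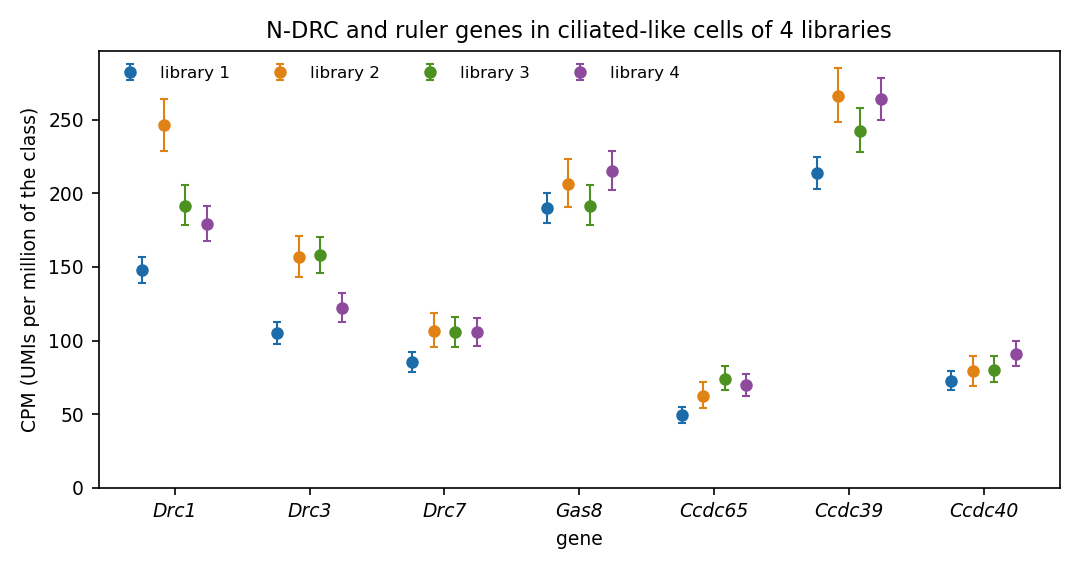
Level of each gene in ciliated-like cells, in CPM, for libraries 1 to 4; points are values and bars exact 95% Poisson intervals. Drc1 in library 2, at 246 CPM, stands clear of its values of 148, 192 and 179 CPM in libraries 1, 3 and 4, and library 1 is the lowest for each gene.

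To set aside differences between libraries in the summed level of axonemal genes, each gene was set against 1000 UMIs of the 39 dynein arm and radial spoke genes in the same cells. On this scale Drc1 had 35.5, 49.9, 36.8 and 34.5 UMIs in libraries 1 to 4, so that libraries 1, 3 and 4 were level and library 2 remained above them (46.3 to 53.6). In the 3 settings that take in the mixed cluster, Drc1 had 53.6 to 54.4 UMIs in library 2 and 35.1 to 38.5 in the other libraries, its interval again above theirs. Drc1 was the only one of the 7 with 1 library above the other 3 on this scale. Of all genes tested 14.9% showed it, a share near that of the 7 genes, so the count does not set them apart. Of the 39 genes themselves, 3 showed it, namely the radial spoke gene Nme5 in library 1, the outer arm heavy chain Dnah5 in library 3 and the inner arm heavy chain Dnah12 in library 2, the last at 46.9, 54.1, 46.1 and 45.0 UMIs. These were named because they showed it, after their values were seen.

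Drc7 was the steadiest on that scale, at 20.5, 21.6, 20.3 and 20.3 UMIs in libraries 1 to 4. Drc3 was at 25.3, 31.8, 30.4 and 23.5 UMIs, again with libraries 2 and 3 above libraries 1 and 4. Gas8 ran the other way, with 45.7, 41.9, 36.8 and 41.5 UMIs, highest in library 1 and lowest in library 3. Ccdc39 was at 51.4, 53.9, 46.6 and 50.8 UMIs, Ccdc40 between 15.4 and 17.5, and Ccdc65 at 11.8, 12.7, 14.3 and 13.4. Intervals of highest and lowest library did not overlap for Drc1, Drc3, Gas8 and Ccdc39, against 51.7% of all genes tested, a share near that of the 7 genes.

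The ciliated-like cells were mainly of 2 clusters, and library 2 was the highest for Drc1 in each. In cluster 12 (3118 cells, median 1972 UMIs) Drc1 had 26.3, 39.8, 28.1 and 27.1 UMIs per 1000 dynein arm and spoke UMIs in libraries 1 to 4. In cluster 14 (1350 cells, median 7425.5 UMIs) it had 43.1, 68.3, 42.7 and 41.7. In the largest mixed cluster (1837 cells with ciliated and secretory markers together) it had 38.3, 59.0, 40.1 and 36.5. In all 3, the interval of library 2 lay above those of the other libraries. These are cells of the same 4 libraries, not replicates of them.

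Gas8 did not keep 1 order across the clusters. In cluster 12 it had 33.3, 31.6, 29.9 and 33.1 UMIs per 1000 in libraries 1 to 4, with overlapping intervals. In cluster 14 it had 55.2, 60.3, 41.6 and 49.3, and in the mixed cluster 56.3, 55.1, 37.0 and 47.6, with library 3 lowest in both and its interval apart from that of library 1.

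**Figure D4:**
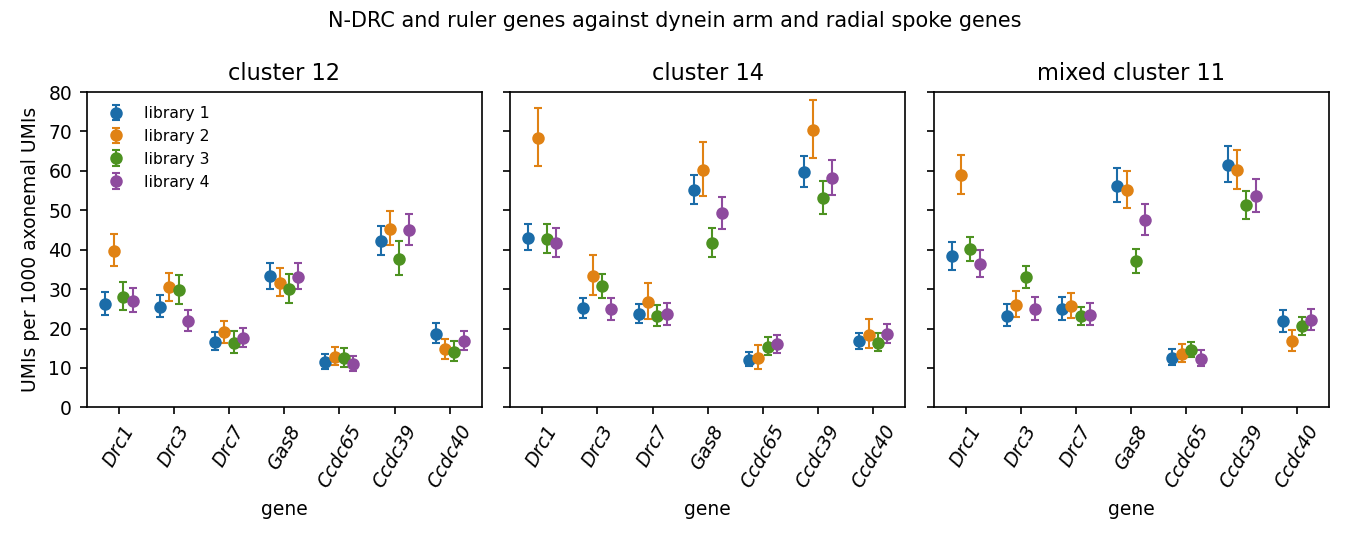
UMIs of each gene per 1000 UMIs of 39 dynein arm and radial spoke genes in cluster 12, cluster 14 and the mixed cluster 11, by library; points are values and bars exact 95% binomial intervals. Drc1 in library 2 stands above the other libraries in each panel, at 39.8, 68.3 and 59.0.

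The 2 ciliated-like clusters also differed in the proportions of the genes. Per 1000 dynein arm and spoke UMIs, cluster 14 had 50.5 Gas8 UMIs, against 32.2 in cluster 12, and likewise 45.5 against 29.97 for Drc1, 58.8 against 42.8 for Ccdc39, 23.8 against 17.4 for Drc7 and 14.1 against 11.9 for Ccdc65. Drc3 and Ccdc40 did not differ beyond counting error, at 27.5 against 26.5 and 17.3 against 16.3. In CPM the order turned for some, with Drc3 at 111 CPM in cluster 14 against 155 CPM in cluster 12, Ccdc40 at 70.2 against 95.6 and Ccdc65 at 57.1 against 69.4 CPM. The dynein arm and spoke genes summed to 4052 CPM in cluster 14 and 5854 CPM in cluster 12.

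The remaining subunits of the N-DRC shared the cell class. All 6 listed genes were at least 2-fold higher in ciliated-like than in other epithelial cells of every library, and none was lower. Iqcg (Drc9) was at 228 against 0.678 CPM, Iqca (Drc11) at 145 against 0.321, Iqcd (Drc10) at 47.7 against 0.226, Tcte1 (Drc5) at 30.5 against 0.131 and Fbxl13 (Drc6) at 26.0 against 0.131 CPM. Efcab2 (Drc8) was at 36.3 against 2.08 CPM, with 175 UMIs in other epithelial cells, the most after Gas8 among the N-DRC genes. None of the 6 differed 1.5-fold between libraries with intervals apart.

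Other lists of ciliary genes were also mostly higher in ciliated-like cells. Of 9 genes of neighbouring complexes in the axonemal repeat, 9 were higher in every library (median log2 ratio 5.96, Ccdc113 highest at 7.74 and Cfap61 lowest at 4.89). All 15 inner arm genes were higher (6.04, from Dnali1 at 7.64 to Cfap73 at 2.45), as were all 10 outer arm and docking genes with at least 50 UMIs of 11 listed (5.69, from Dnah5 at 7.11 to Dnal1 at 3.997) and all 12 radial spoke genes with as many of 13 listed (5.52, from Rsph1 at 7.76 to Rsph3b, a close paralog of Rsph3a, at 3.01). Of the assembly factors that prepare dynein arms, all 10 with as many of 11 listed were higher (4.49, from Zmynd10 at 6.51 to Dnaaf2 at 2.60), of 20 intraflagellar transport genes 19 (4.11, from Ift172 at 5.77 to Ttc21b at 0.88) and of 5 transcription factors 4 (3.601, from Rfx3 at 4.34 to E2f4 at 0.06). The medians include genes with few UMIs, for which the added 1 CPM pulls the ratio down.

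Over the 16 clusters of at least 50 cells, the closest patterns to each gene included those of known cilia genes such as Cfap70, Rsph1, Spag16 and Dnai4. By Pearson's r of log2(CPM + 1) among 9962 genes, the nearest were Nek5, Cfap70 and Fank1 for Drc1 (0.995 to 0.996), Rsph1, Efcab10 and Smim5 for Drc3 (0.995 to 0.996), Ccdc81, Spag16 and the N-DRC gene Iqca for Drc7 (0.996 each), Lrrc71, Dnaaf1 and Nme9 for Ccdc65 (0.994 to 0.995), Ccdc146, Dnai4 and Cep126 for Ccdc39 (0.996 to 0.997) and Spag16, Tmem232 and Spag8 for Ccdc40 (0.996 to 0.997). The nearest to Gas8 were Glipr2 and Zc2hc1a (0.978 to 0.981). Among the 7 genes themselves, r was at least 0.963 for pairs without Gas8 and 0.909 to 0.952 for pairs with it. The clusters share libraries and the correlations rest on the contrast of ciliated with other clusters, so they are given as a description.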

How the data were processed

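Tracheal cells were profiled on a 10x 3' platform, per the labels' protocols, after pronase digestion, plating to separate fibroblasts and removal of dead cells, which can set the share of each cell type. The deposited matrix holds raw UMI counts per gene and barcode for all 4 libraries together. It was written by Cell Ranger 6.0.1, per the file headers, and build GRCm39 was used, per the submitters' processing notes. The annotation release is not given in the sources used here.

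Filters at 500 UMIs, 300 genes and 20% mitochondrial UMIs took out 1308 barcodes, and doublets were scored per library with 2 simulated doublets per cell. The automatic threshold marked 9 cells (0.0442%), a failure, so the 888 highest scores were removed at 0.8% per 1000 cells. Each cell was scaled to 10000 counts, and 2000 variable genes less the members (5 of the 7 were among them), 30 components, 15 neighbours and Leiden clustering at resolution 1 were used (scanpy 1.11.5). A cluster was named where at least 3 markers of a class were in 10% of its cells and, with 5 CPM added, exceeded the 25th percentile of all clusters by 1 on the log2 scale. It was called mixed where at least 75% of another lineage's markers were up (secretory, basal and hillock counted as 1 lineage, and proliferating cells were exempt), and left unnamed where more of its 10 leading genes marked another class or where it was shallow with none of its own there. Names rest on rebuilt clusters, and free RNA was not subtracted. Levels are summed counts as CPM with exact Poisson intervals, and shares have Clopper-Pearson intervals. No test was run, since each genotype had 1 library. Functions were tested on simulated data. Named genes are the 7 members, the other N-DRC subunits, the highest and lowest gene of each other list and the 3 genes nearest in pattern to each member, of which 1 is not reported here. The members and lists were chosen with earlier results of these data known. Alternatives covered the pseudocount, depth, class definition, filters and leaving out each library.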

Additional observations from a re-analysis of the deposited data

How the results depend on the processing

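All 7 genes were at least 2-fold higher in ciliated-like cells in every library under each alternative run. These were pseudocounts of 5 and 0.2 CPM, means over cells, thinning, and basal-like or secretory-like cells alone as the comparison. Other clusterings and filters, mixed clusters added, no UMI minimum and leaving out each library were run too. Dropping a library or the minimum could not change the count of 7, since the rule asks for every library and all 7 genes passed the minimum. With the 10% mitochondrial limit no cluster was named secretory, so the other epithelial cells were basal-like, hillock-like and ionocyte-like cells alone. The smallest median log2 ratios came with a gate on marker shares in place of clusters, at 3.94 for Drc1 and 3.30 for Gas8. Under the gate, Gas8 took 28.0% of the 7 genes' UMIs in secretory and basal cells, of which 12.5% lay in the mixed clusters, against 76.6% with classes from clusters. The part of those cells was not tested. No gene differed 2-fold between libraries in any alternative. Leaving out a library cannot raise the ratio of highest to lowest, so that count of 0 was fixed beforehand. With the main classes, 3 genes (Drc1, Drc3 and Ccdc65) differed 1.5-fold. Those 3 and the order of libraries depend on the class definition. With mixed clusters counted as ciliated, a 10% mitochondrial limit or axonemal genes left out of clustering, the ratios were 1.13 to 1.23 for Drc1, 1.27 to 1.34 for Drc3 and 1.65 to 1.73 for Ccdc40. Ccdc65 went from 1.507 with the main classes to 1.418, 1.482 and 1.49998 in these settings, all under the mark. Its ratio was 1.34 under the gate. Over the other alternatives it ran from 1.11 in cells thinned to 500 UMIs to 1.71 in cluster 14 alone. Per dynein arm and spoke UMI, 4 genes had intervals apart in all ciliated-like cells, 3 under the gate or against intraflagellar transport genes (Ccdc39 no longer apart, at ratios of 1.11 and 1.13), and 2 in cluster 12 alone, an alternative chosen after seeing the data, where fewer UMIs were counted. The share of ciliated-like cells with any of the genes was 40.5% at 500 UMIs per cell and 86.1% at full depth. No paired analysis was possible because each genotype had 1 library. Depth limits the values under 1 CPM outside ciliated-like cells, which rest on 0 to 17 UMIs per gene and library.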

Other observations

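Cells with at least 2 detected deuterosomal markers, genes of cells that are building their centrioles, numbered 210 over all classes, 104 of them ciliated-like and 82 in mixed clusters, with a median of 11241 UMIs. This set was chosen after seeing the data, and detecting 2 markers favours deep cells. Each of the 7 genes was lower there in CPM than in the 4638 ciliated-like cells with fewer markers, with Drc1 at 79.0 against 181 CPM, Gas8 at 105 against 199, Ccdc39 at 135 against 239 and Drc3 at 80.7 against 127 CPM. Dynein arm and radial spoke genes were lower as well, at 2758 against 4754 CPM. Per 1000 UMIs of those genes, Drc1 had 28.7 (25.03 to 32.7) in the deuterosomal set and 38.2 (36.9 to 39.5) in the other ciliated-like cells. Drc3 had 29.3 (25.6 to 33.3) against 26.8 (25.7 to 27.9), and Ccdc39 had 49.0 (44.1 to 54.2) against 50.4 (48.9 to 51.9), which overlapped. The 82 mixed cells of the set had a median of 21410.5 UMIs and its 104 ciliated-like cells 4816, so a mixed cell weighed more in the sums. Over all mixed clusters the 7 genes summed to 303 CPM, against 991 CPM in all ciliated-like cells. The set and the ciliated-like cells thus differ in class, and the lower CPM is not read as a deuterosomal reduction. Whether the mixed cells in the set bear on these values was not tested.

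A ciliated-like cluster of shallow cells (274 cells, median 757.5 UMIs) carried the genes in other proportions. Ccdc39 was at 108 CPM (73.0 to 154) in these cells, against 250 CPM in cluster 12 and 238 CPM in cluster 14, while Gas8 was at 270 CPM (213 to 339), against 188 and 205 CPM. These values rest on 30 and 75 UMIs, and the part of depth was not tested.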
